A study of Mus musculus with 4 samples.

Results

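The level of a short hairpin RNA (shRNA) against luciferase was set against the endogenous miR-30 microRNAs in cultured fibroblasts from mouse embryos (MEFs, primary cells), by sequencing of small RNA. The members, chosen by name, are the 8 microRNAs mmu-miR-30a, mmu-miR-30a*, mmu-miR-30b, mmu-miR-30b*, mmu-miR-30c, mmu-miR-30d, mmu-miR-30e and mmu-miR-30e* (given below without the species prefix) and the row Luc shRNAs, 9 of the 509 names that the 4 libraries list together. Each group is 1 library: cells with the shRNA and ROSA-rtTA given doxycycline (rtTA, +dox), the same genotype without it (rtTA, -dox), cells with the shRNA alone given doxycycline (no rtTA, +dox) and without it (no rtTA, -dox). All 4 groups thus carry shLuc.1309, the shRNA against luciferase, a gene that mice lack. rtTA is a transactivator that binds tetracycline-responsive promoters and turns them on only together with doxycycline (dox). ROSA stands for the Rosa26 locus, from which a transgene is expressed in most mouse tissues. The sources used here give neither the dose and duration of dox nor the number of embryos behind each library or whether they were pooled.

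MicroRNAs are cut from hairpins in transcripts, first by Drosha in the nucleus and then by Dicer in the cytoplasm, and the strand kept in an Argonaute protein finds target messenger RNAs mainly through its seed, bases 2 to 8. The more abundant arm of a hairpin is called the guide here and the arm with a star name the passenger or star arm. The miR-30 family is expressed in many mesenchymal and epithelial tissues, and the human miR-30a hairpin became a common backbone for shRNAs, in which the stem is replaced by a designed one and the hairpin is then cut like a microRNA. The study is known for placing such shRNAs under tetracycline-responsive control in mice, and the endogenous miR-30 hairpins are used here as the measure of its level.

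The libraries hold 6383594 to 8780954 counts, of which 6378964 to 8774056 are endogenous microRNA counts. Levels are given as CPM, the count per 1000000 endogenous microRNA counts of the library, so that the shRNA does not enter the denominator. The label of the cells was set against marker microRNAs. Of 8 mesenchymal or fibroblast markers 7 were listed in every library, with summed levels of 427136 to 444856 CPM. The other, miR-199a-3p, is a name that no library lists. The summed levels of the blood (51.8 to 80.2 CPM), epithelial (4.23 to 8.78 CPM), pluripotent (0.306 to 0.666 CPM) and liver (2.51 to 3.99 CPM) markers were low, and those of the endothelial markers ran from 120 to 175 CPM and of the neuronal ones from 316 to 433 CPM. The 4 muscle markers summed to 592 CPM (rtTA, +dox), 382 CPM (rtTA, -dox), 246 CPM (no rtTA, +dox) and 262 CPM (no rtTA, -dox), highest in the library with the high shRNA. They did not move together. The log2 ratio of rtTA, +dox over rtTA, -dox was 0.71 for miR-206 but -1.08 for miR-1 and -0.435 for miR-133a. The part of these cell types in the values below was not tested. In bulk libraries fewer cells of a type and less RNA per cell cannot be told apart.

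The guides are shown because they share their seed and, in part, nearly their whole sequence. The sequences are from RefSeq (GRCm38.p6), matched to the deposited ones letter by letter for 5 of the 8 miR-30 members, written 5′ to 3′ with the seed in capitals.
miR-30a: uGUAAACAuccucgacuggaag
miR-30e: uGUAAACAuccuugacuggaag
miR-30c: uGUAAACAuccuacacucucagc
miR-30a*: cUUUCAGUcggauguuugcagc
miR-30e*: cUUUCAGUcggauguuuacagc
miR-30c-1*: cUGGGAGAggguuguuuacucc
miR-30c-2*: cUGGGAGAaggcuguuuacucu
All 5 guides have the seed GUAAACA, and the files list 6 microRNAs with it, the other being miR-384-5p. From position 1 at the 5′ end, miR-30e differs from miR-30a by C13U alone and miR-30e* from miR-30a* by G18A alone. miR-30d has 1 mismatch to miR-30a and 2 to miR-30e. How reads that fit several of these were counted is not given in the sources used here, so the split between miR-30a, miR-30d and miR-30e, and between miR-30a* and miR-30e*, is uncertain. miR-30a* and miR-30e* share the seed UUUCAGU, and miR-30b* was the only listed microRNA with its own seed, UGGGAUG.

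The hairpins lie in pairs in the mouse genome. Mir30a lies on chromosome 1 (23272269 to 23272339, plus strand, outside any other gene of the annotation), 19.4 kb from Mir30c-2 (23291701 to 23291784, in an exon of the long noncoding RNA Gm27028). Mir30e (120772606 to 120772697) and Mir30c-1 (120769534 to 120769622) lie 2.98 kb apart on the minus strand of chromosome 4, in introns of Nfyc, which encodes a subunit of the transcription factor NF-Y. Mir30b and Mir30d lie 3.70 kb apart on chromosome 15. miR-30c can come from both of its loci, whereas miR-30c-1* and miR-30c-2* come from 1 each.

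The shRNA row is shown beside the mouse miR-30a hairpin because they share part of the loop. Its longest perfect stem has 23 base pairs, formed by bases 130 to 152 with bases 168 to 190 of the 324 listed, and closes on a loop of 15 bases. The shRNA stem and loop are written as the files have them (with T) and the Mir30a hairpin as RefSeq has it (with U), with the longest run common to both in capitals.
shRNA stem and loop: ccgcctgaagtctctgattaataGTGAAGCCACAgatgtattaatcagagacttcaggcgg
Mir30a hairpin: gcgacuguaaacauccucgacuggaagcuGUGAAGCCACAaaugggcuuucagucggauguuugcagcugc
The common run is 11 bases long and lies in the loop of both. Of the 1005 mouse hairpins of the RefSeq table, 8 (0.796%) share a run of at least 11 bases with the 324-base row, the longest being 12 bases. The Mir30c-1, Mir30c-2 and Mir30e hairpins share 9, 8 and 7 bases. The Mir30b and Mir30d hairpins are not among these 1005 and were not compared. None of the 508 listed microRNAs shares 16 or more bases with the row (the longest run is 12 bases, and 7 bases for a miR-30 member). The guide seed GUAAACA does not occur in the shRNA stem and loop on either strand, and its complement occurs 1 time elsewhere in the 324-base row. Which bases of the row the counted reads cover is not stated in the files or labels, so the shRNA count may combine both arms of the stem and is not resolved into guide and passenger.

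The shRNA stood above every miR-30 arm when it was switched on and below the abundant guides when it was not. It had 24386 CPM in the rtTA, +dox library, against 786 CPM (rtTA, -dox), 774 CPM (no rtTA, +dox) and 726 CPM (no rtTA, -dox). In the 3 libraries with a low shRNA, 3 miR-30 members (miR-30a, miR-30d and miR-30e) had more counts than the shRNA and 5 had fewer. In the rtTA, +dox library all 8 had fewer.

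**Figure D1:**
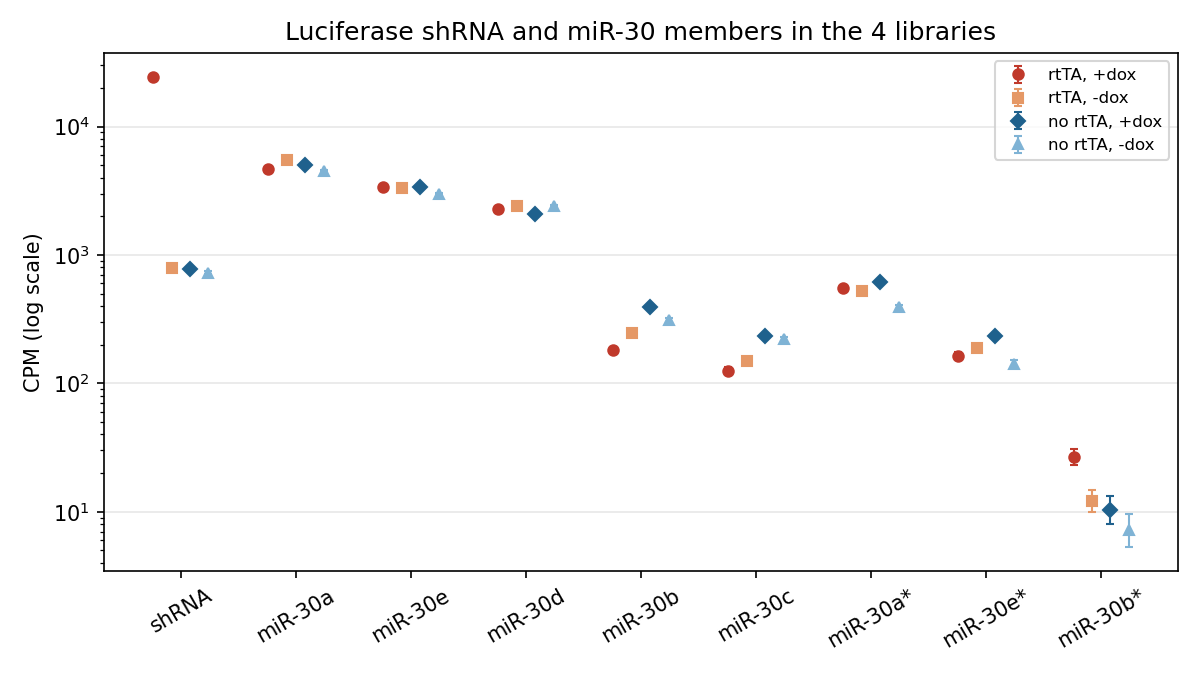
Level in CPM (log scale) of the shRNA and of the 8 miR-30 members in the 4 libraries, 1 point per library, with exact Poisson 95% intervals of the count. The shRNA is at 24386 CPM in the rtTA, +dox library and at 726 to 786 CPM in the other 3, while miR-30a stays within 4491 to 5451 CPM, miR-30e within 2977 to 3405 CPM and miR-30d within 2083 to 2394 CPM.

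The miR-30 guides themselves took about the same share of the endogenous microRNAs in every library. The sum of miR-30a, miR-30b, miR-30c, miR-30d and miR-30e was 10653 CPM (rtTA, +dox), 11569 CPM (rtTA, -dox), 11160 CPM (no rtTA, +dox) and 10393 CPM (no rtTA, -dox), which is 1.07%, 1.16%, 1.12% and 1.04% of the endogenous counts. The rtTA, +dox library lay within the range of the other 3. The log2 ratio of the sum was -0.12 for rtTA, +dox over rtTA, -dox (95% interval -0.13 to -0.11, exact conditional binomial). It was -0.07 (-0.08 to -0.05) for rtTA, +dox over no rtTA, +dox, a value that is above 0 under TMM (0.03) and DESeq2 (0.04) scaling. It was 0.10 (0.09 to 0.12) for dox without rtTA and 0.15 (0.14 to 0.17) for rtTA without dox. With 1 library per group no difference here or below has a replicate check, no p-value was computed, and the values compare libraries, not conditions. All intervals cover counting error only, since each group is 1 library. They may be too narrow even for that, since PCR copies are not told apart without molecular identifiers and reads are then not independent molecules.

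Set against the guides within the same library, a ratio that no scaling between libraries can change, the shRNA had 2.29 counts per count of the 5 guides together (95% interval 2.27 to 2.31) in the rtTA, +dox library. It had 0.0680 (0.0663 to 0.0696; rtTA, -dox), 0.0694 (0.0674 to 0.0714; no rtTA, +dox) and 0.0698 (0.0678 to 0.0720; no rtTA, -dox) in the others, and these 3 intervals overlap. Without induction the 5 guides thus had 14.3 to 14.7 counts for each count of the shRNA. The ratio in the rtTA, +dox library was 33.7 times that in the rtTA, -dox library and 33.0 times that in the no rtTA, +dox library.

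Arm by arm, the shRNA had 5.22 counts per count of miR-30a in the rtTA, +dox library, against 0.144 (rtTA, -dox), 0.153 (no rtTA, +dox) and 0.162 (no rtTA, -dox). For miR-30e these were 7.16 (rtTA, +dox), against 0.236 (rtTA, -dox), 0.228 (no rtTA, +dox) and 0.244 (no rtTA, -dox). For miR-30d they were 10.7 (rtTA, +dox), against 0.330 (rtTA, -dox), 0.372 (no rtTA, +dox) and 0.303 (no rtTA, -dox). The shRNA went past each of the abundant guides in the rtTA, +dox library alone. Over the rarer miR-30b and miR-30c it already stood higher in every library without induction, at 1.97 to 3.18 and 3.30 to 5.29 counts per count. In the rtTA, +dox library these were 135 and 195. The star arms were passed by the shRNA in every library. miR-30a*, the most abundant of them, was nearest, with 44.1 shRNA counts per count in the rtTA, +dox library and 1.26 to 1.84 in the others.

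**Figure D2:**
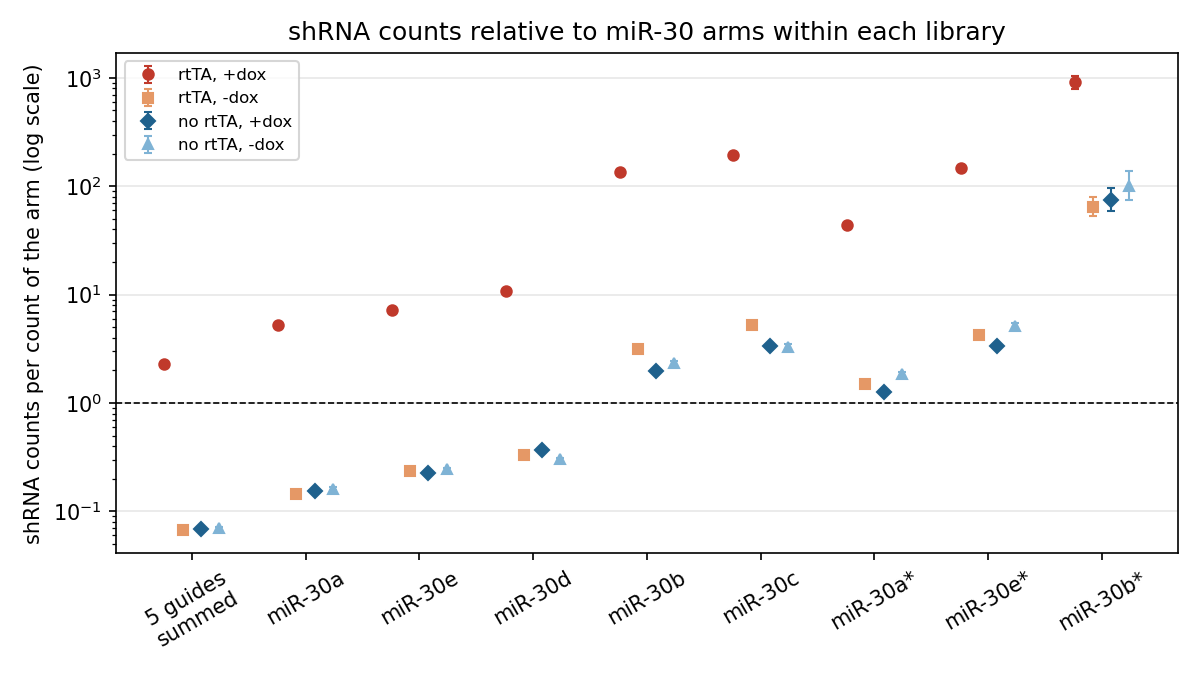
shRNA counts per count of each miR-30 arm and of the 5 guides summed (log scale), within each of the 4 libraries, with exact conditional binomial 95% intervals. The dashed line marks equal counts: the rtTA, +dox library lies above it for every arm and for the sum (2.29), while the other 3 libraries lie below it for the sum, miR-30a, miR-30e and miR-30d.

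Among all listed RNAs the shRNA ranked 8 in the rtTA, +dox library, between let-7c (24693 CPM) and let-7i (23936 CPM), both of the let-7 family. In the other libraries its neighbours were much less abundant. It stood between miR-532-5p (818 CPM) and miR-369-5p (760 CPM) in the rtTA, -dox library, between miR-351 (779 CPM) and miR-369-5p (761 CPM) in the no rtTA, +dox library and between miR-29c (734 CPM) and miR-434-3p (680 CPM) in the no rtTA, -dox library. The endogenous microRNAs were searched for those most like it, by the smallest log2 ratio of the rtTA, +dox library over each of the other 3, where the shRNA had 4.96. Over 372 microRNAs past a floor on low counts (a mean of at least 3.14 CPM, which is 20 counts in the shallowest library; all 8 miR-30 members passed) the highest was the family's own miR-30b* (1.14), followed by miR-672 (0.997) and miR-483 (0.87), a microRNA from within Igf2. In these CPM miR-30b*, which rests on 46 to 202 counts per library, was the only one of the 372 at least 2-fold above each other library. miR-672 fell just short of 2-fold, so that this distinction depends on the scaling.

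miR-30a, miR-30e and miR-30d supplied nearly all the guide counts and varied little. miR-30a had 4669 CPM (rtTA, +dox), 5451 CPM (rtTA, -dox), 5057 CPM (no rtTA, +dox) and 4491 CPM (no rtTA, -dox). miR-30e had 3405 CPM (rtTA, +dox), 3336 CPM (rtTA, -dox), 3392 CPM (no rtTA, +dox) and 2977 CPM (no rtTA, -dox). miR-30d had 2273 CPM (rtTA, +dox), 2386 CPM (rtTA, -dox), 2083 CPM (no rtTA, +dox) and 2394 CPM (no rtTA, -dox). The order miR-30a, miR-30e, miR-30d was the same in every library, and each step was larger than its counting interval. The highest library was 1.21 times the lowest for miR-30a, 1.15 times for miR-30d and 1.14 times for miR-30e, against a median of 1.58 over the 372 microRNAs. Only 10 of the 372 varied less than miR-30e, 13 less than miR-30d and 32 less than miR-30a. This ratio also widens with counting error, which is larger for the rarer of the 372, and no matching by level was done. The share of the guide counts was 43.2% to 47.1% for miR-30a, 28.6% to 32.0% for miR-30e and 18.7% to 23.0% for miR-30d over the 4 libraries.

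miR-30b and miR-30c, the rarer guides, were lower in the rtTA libraries. miR-30b had 180 CPM (rtTA, +dox) and 247 CPM (rtTA, -dox), against 394 CPM (no rtTA, +dox) and 311 CPM (no rtTA, -dox). miR-30c had 125 CPM (rtTA, +dox) and 149 CPM (rtTA, -dox), against 233 CPM (no rtTA, +dox) and 220 CPM (no rtTA, -dox). In both cases the libraries with and without rtTA did not overlap and the rtTA, +dox library was the lowest. Of all 372 microRNAs, 91 (24.5%) had both rtTA libraries below both others, so that 2 of 8 miR-30 members is close to the background. miR-30b and miR-30c made up 1.69% and 1.17% of the guide counts in the rtTA, +dox library, 2.13% and 1.28% in the rtTA, -dox library, 3.53% and 2.08% in the no rtTA, +dox library and 2.996% and 2.11% in the no rtTA, -dox library.

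The star arms were further down in level, and miR-30b*, unlike its guide, was higher in the rtTA libraries. miR-30a* had 552 CPM (rtTA, +dox), 527 CPM (rtTA, -dox), 616 CPM (no rtTA, +dox) and 394 CPM (no rtTA, -dox). miR-30e* had 164 CPM (rtTA, +dox), 187 CPM (rtTA, -dox), 233 CPM (no rtTA, +dox) and 143 CPM (no rtTA, -dox). Both were lowest in the no rtTA, -dox library and highest in the no rtTA, +dox library, with the rtTA, +dox library in between. miR-30b* had 26.9 CPM (rtTA, +dox) and 12.2 CPM (rtTA, -dox), against 10.4 CPM (no rtTA, +dox) and 7.21 CPM (no rtTA, -dox), which rest on 202, 107, 68 and 46 counts. It was the only member with both rtTA libraries above both others, as 56 (15.1%) of the 372 microRNAs were. miR-30a* and miR-30e had both +dox libraries above both -dox libraries (36 of 372, 9.68%) and miR-30d had both below (60 of 372, 16.1%). For miR-30e this rests on 3405 CPM (rtTA, +dox) and 3392 CPM (no rtTA, +dox) against 3336 CPM (rtTA, -dox). The counting intervals of the no rtTA, +dox library (3348 to 3437 CPM) and the rtTA, -dox library (3298 to 3375 CPM) overlap, and scaled to all counts the rtTA, +dox library lies below the rtTA, -dox library.

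In the lower part of the family the order of levels was not the same in every library. miR-30a* followed miR-30d and came before miR-30b in all 4. miR-30e* stood above miR-30c in the rtTA, +dox library (1234 and 939 counts) and in the rtTA, -dox library (1641 and 1304 counts). It could not be told apart from miR-30c in the no rtTA, +dox library (1522 and 1521 counts) and stood below it in the no rtTA, -dox library (910 and 1401 counts). miR-30b* was the rarest member throughout. Of the other family arms, miR-30c-1* had 23.0 CPM (rtTA, +dox), 18.7 CPM (rtTA, -dox), 14.4 CPM (no rtTA, +dox) and 12.5 CPM (no rtTA, -dox). miR-30c-2* had 77.8 CPM (rtTA, +dox), 63.0 CPM (rtTA, -dox), 56.6 CPM (no rtTA, +dox) and 59.4 CPM (no rtTA, -dox). These arms, like the members miR-30b* and miR-30e, were highest in the rtTA, +dox library, as were 104 (28.0%) of the 372 microRNAs. For miR-30e the margin was small, 3405 CPM against 3392 CPM (no rtTA, +dox). miR-384-5p, with the same seed as the guides, had 1 count (rtTA, +dox) and 3 counts (rtTA, -dox) and was not listed in the libraries without rtTA, where a count of 0 allows up to 3 counts of the total, that is 0.459 CPM (no rtTA, +dox) and 0.470 CPM (no rtTA, -dox).

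rtTA, +dox over rtTA, -dox sets the high shRNA against the low one in the same genotype. To be called higher or lower, a microRNA had to be at least 2-fold apart between the libraries with a 95% interval of the ratio that excluded equality. Of the 8 miR-30 members 1 was higher, miR-30b* (log2 ratio 1.14, 0.80 to 1.49), beside 1.34% of the 372 microRNAs, and 0 were lower, beside 8.6%. No guide was 2-fold apart: the log2 ratio was -0.45 (-0.55 to -0.36) for miR-30b, -0.25 (-0.37 to -0.13) for miR-30c, -0.22 (-0.24 to -0.20) for miR-30a, -0.07 (-0.10 to -0.04) for miR-30d and 0.03 (0.01 to 0.05; -0.0041 when scaled to all counts) for miR-30e. The star arms miR-30a* and miR-30e* were at 0.07 (0.01 to 0.13) and -0.19 (-0.29 to -0.08). The median was -0.13 over the 8 members and -0.06 over the 372. miR-30b* had the third highest ratio of all 372. With 1.5-fold in place of 2-fold the members called were again miR-30b* alone, beside 11.0% higher and 17.7% lower of the 372.

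rtTA, +dox over no rtTA, +dox makes the same contrast of shRNA levels across genotypes with dox in both libraries, and shares the rtTA, +dox library with the first comparison. miR-30b* was higher (1.37, 0.97 to 1.79), beside 2.42% of the 372, and miR-30b was lower (-1.13, -1.22 to -1.03), beside 14.2%. miR-30c, at -0.89 (-1.01 to -0.78), fell short of 2-fold and was counted as lower with a threshold of 1.5-fold, as were 24.2% of the 372 (13.7% were higher). The abundant guides were at -0.12 (miR-30a; -0.01 under TMM and DESeq2 scaling), 0.13 (miR-30d) and 0.0055 (miR-30e, with an interval of -0.02 to 0.03 that spans 0; -0.03 when scaled to all counts). The star arms miR-30a* and miR-30e* were at -0.16 and -0.50. In this comparison TMM and DESeq2 scaling shift all log2 ratios upward, by 0.101 and 0.104, and in the other 3 all scalings shift them by less than that.

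Dox without rtTA leaves the shRNA low (log2 ratio 0.09, 0.04 to 0.15). No member was 2-fold apart, beside 0.806% of the 372 in each direction. The star arms had the largest ratios: miR-30e* was at 0.71 (0.59 to 0.83), miR-30a* at 0.65 (0.57 to 0.72) and miR-30b* at 0.53 (-0.03 to 1.10). With 1.5-fold as the threshold, miR-30a* and miR-30e* were counted as higher, beside 7.53% of the 372, and 0 members as lower, beside 7.8%. Among the guides miR-30b was at 0.34, miR-30e at 0.19, miR-30a at 0.17, miR-30c at 0.08 and miR-30d at -0.20.

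rtTA without dox likewise compares libraries with a low shRNA (0.12, 0.06 to 0.17). No member was 2-fold apart, beside 0.538% higher and 1.34% lower of the 372. miR-30b* was at 0.76 (0.25 to 1.29), and was the only member counted as higher with a threshold of 1.5-fold (2.42% of the 372 were; 6.99% were lower). miR-30c was at -0.56 (-0.67 to -0.45) and miR-30b at -0.33 (-0.42 to -0.25), both less than 1.5-fold apart between these libraries. miR-30a was at 0.28, miR-30e at 0.16 and miR-30d at -0.0048 (0.018 under TMM and 0.044 with DESeq2 size factors), while miR-30a* and miR-30e* were at 0.42 and 0.39.

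**Figure D3:**
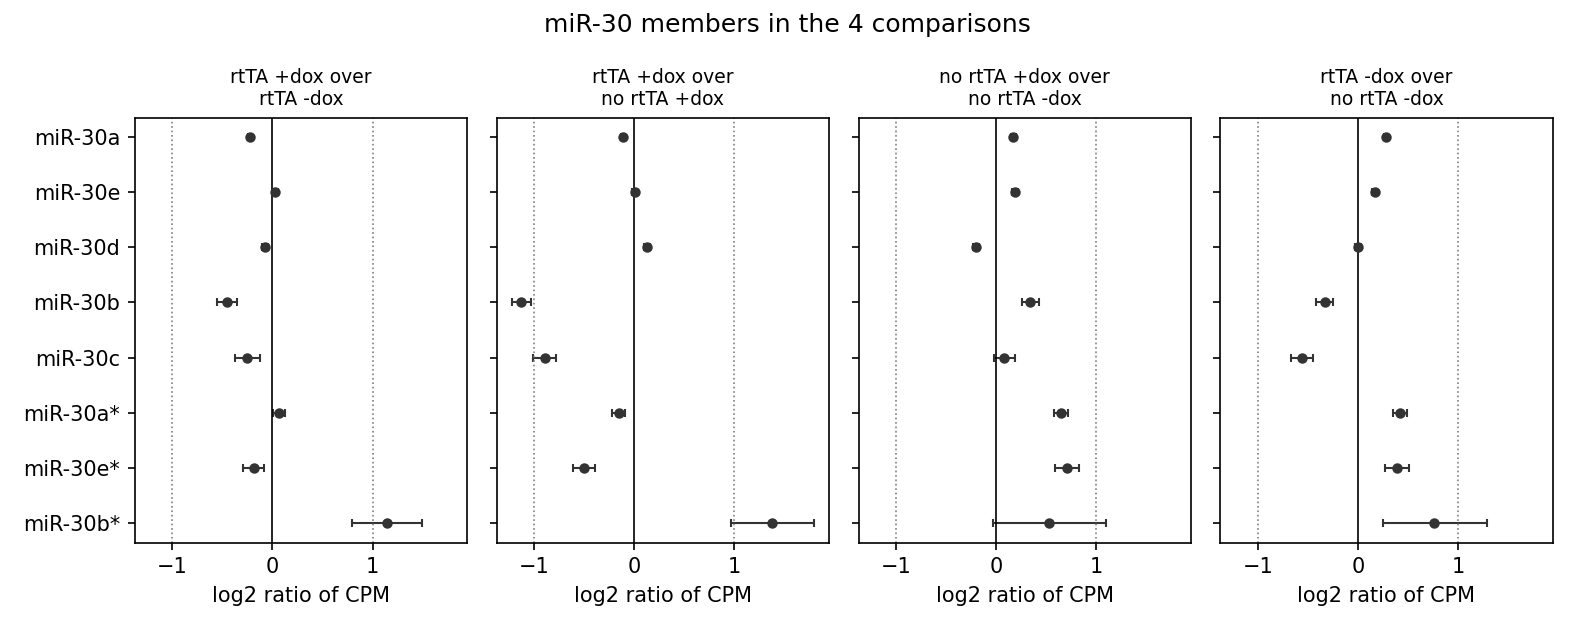
log2 ratio of CPM of the 8 miR-30 members in the 4 comparisons of 2 libraries, with exact conditional binomial 95% intervals and dotted lines at 2-fold. miR-30a, miR-30e and miR-30d stay within -0.22 to 0.28 in every panel, while miR-30b* lies past 2-fold in both comparisons with the rtTA, +dox library on top and miR-30b in the second of them (-1.13).

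The dox ratios with and without rtTA, which share no library, were set against each other. The shRNA differed by 4.86 (log2; delta-method 95% interval 4.79 to 4.93), and 0 miR-30 members by 1 or more, beside 5.65% of the 372 higher and 12.4% lower with rtTA. The difference was -0.89 (-1.05 to -0.73) for miR-30e*, -0.79 (-0.92 to -0.66) for miR-30b, -0.58 (-0.67 to -0.48) for miR-30a*, -0.39 for miR-30a, -0.33 for miR-30c, -0.16 for miR-30e, 0.13 for miR-30d and 0.62 (-0.02 to 1.25) for miR-30b*. For 3 of 8 members, miR-30a, miR-30b and miR-30e*, the ratios pointed opposite ways with both intervals excluding equality, beside 33.6% of the 372.

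The balance of the arms, which no scaling changes, differed most within the family for miR-30b and, with star arms outside the members, for miR-30c. The star arm held 13.0% of the counts of both miR-30b arms in the rtTA, +dox library (95% interval 11.4% to 14.8%, Clopper-Pearson), against 4.71% (3.87% to 5.66%; rtTA, -dox), 2.57% (2.003% to 3.25%; no rtTA, +dox) and 2.26% (1.66% to 3.01%; no rtTA, -dox). The log2 odds ratio of the star arm was 1.60 (1.24 to 1.95) for rtTA, +dox over rtTA, -dox, beside 2.7% of 74 hairpins with both arms named that were at least 2-fold higher by their interval, and 16.2% that were lower. It was 2.50 (2.09 to 2.91) for rtTA, +dox over no rtTA, +dox (6.76% higher, 20.3% lower). In the comparisons without a high shRNA it was 1.09 (0.59 to 1.60) for rtTA without dox (2.7% higher, 1.35% lower) and 0.19 (-0.36 to 0.74) for dox without rtTA (5.41% higher, 2.7% lower). The arms of miR-30b differ in G content, and with the linear trend on G (described further on) subtracted from both arms the log2 odds ratio was 0.43 for rtTA, +dox over rtTA, -dox, no longer 2-fold, and 1.10 for rtTA, +dox over no rtTA, +dox. It was then 1.10 for rtTA without dox and 0.42 for dox without rtTA. This alternative was chosen after seeing the data.

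The star share of miR-30a was 10.6% (rtTA, +dox), 8.81% (rtTA, -dox), 10.9% (no rtTA, +dox) and 8.06% (no rtTA, -dox). That of miR-30e was 4.60% (rtTA, +dox), 5.31% (rtTA, -dox), 6.42% (no rtTA, +dox) and 4.57% (no rtTA, -dox). Neither was 2-fold apart in its odds in any comparison, and for neither did the rtTA, +dox library lie outside the range of the others. miR-30c, whose star arms miR-30c-1* and miR-30c-2* were added up, had the highest star share of the family, 44.6% (rtTA, +dox), 35.5% (rtTA, -dox), 23.4% (no rtTA, +dox) and 24.7% (no rtTA, -dox). The arms of miR-30c also differ in G content, but the trend on G was not subtracted for them. No background share was computed for a sum of star arms. Arms were paired by name.

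**Figure D4:**
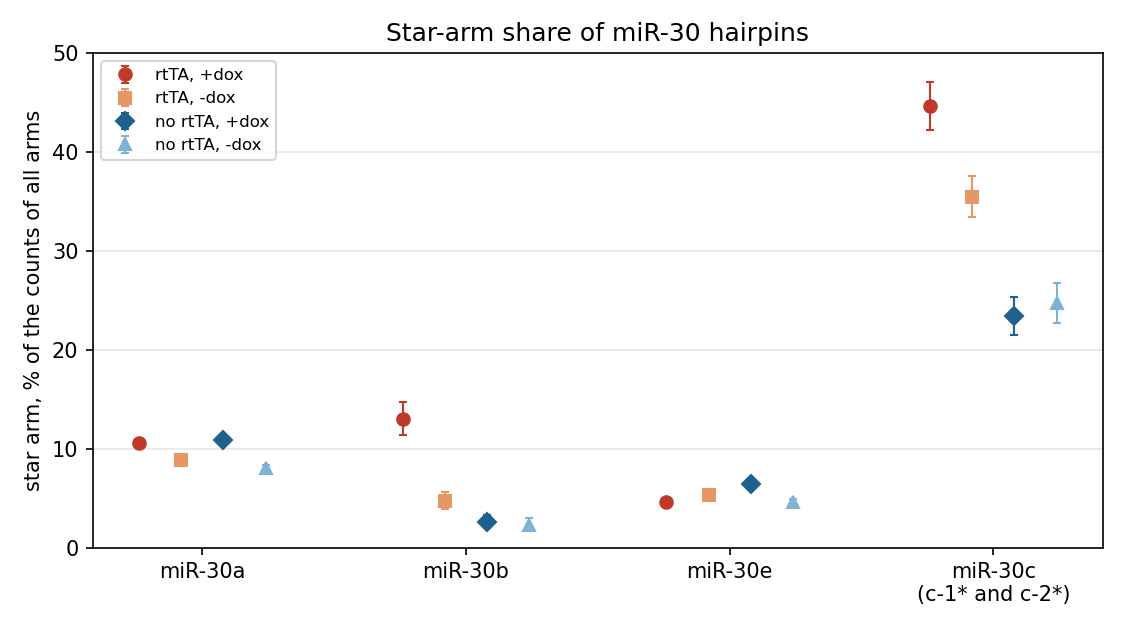
Star-arm share (% of the counts of guide and star arms) of 4 miR-30 microRNAs in the 4 libraries, with Clopper-Pearson 95% intervals. For miR-30b the rtTA, +dox library is at 13.0% and the others at 2.26% to 4.71%, for miR-30c the shares run from 23.4% to 44.6%, and those of miR-30a and miR-30e stay within 8.06% to 10.9% and 4.57% to 6.42%.

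The members that stood out also differ in base composition. G makes up 9.09% of miR-30b and 8.70% of miR-30c but 36.4% of miR-30b*, 36.4% of miR-30c-1* and 31.8% of miR-30c-2*, while miR-30a, miR-30d, miR-30e and miR-30e* are all at 22.7% and miR-30a* at 27.3%, near the median of 23.8% over the 372. Across microRNAs, which share their libraries, the log2 ratio had a Pearson correlation with the percentage of G of 0.72 for rtTA, +dox over rtTA, -dox and 0.69 for rtTA, +dox over no rtTA, +dox. It was -0.20 for dox without rtTA and -0.0038 for rtTA without dox. With the linear trend on G subtracted, the log2 ratio of miR-30b* was 0.67 for rtTA, +dox over rtTA, -dox and 0.81 for rtTA, +dox over no rtTA, +dox, so that neither was 2-fold apart. For miR-30b these values were 0.24 and -0.30, and for miR-30c 0.46 and -0.05, so that both guides lay above 0 in the first comparison, where they were at -0.45 and -0.25 before the subtraction. miR-30d (0.04) and miR-30a* (-0.02) likewise changed sign there, and miR-30a (0.02) in the second. Beyond this, the part of base composition in the ratios was not tested. For rtTA without dox, where the trend was absent, the values were 0.76 for miR-30b*, -0.34 for miR-30b and -0.57 for miR-30c after the subtraction.

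**Figure D5:**
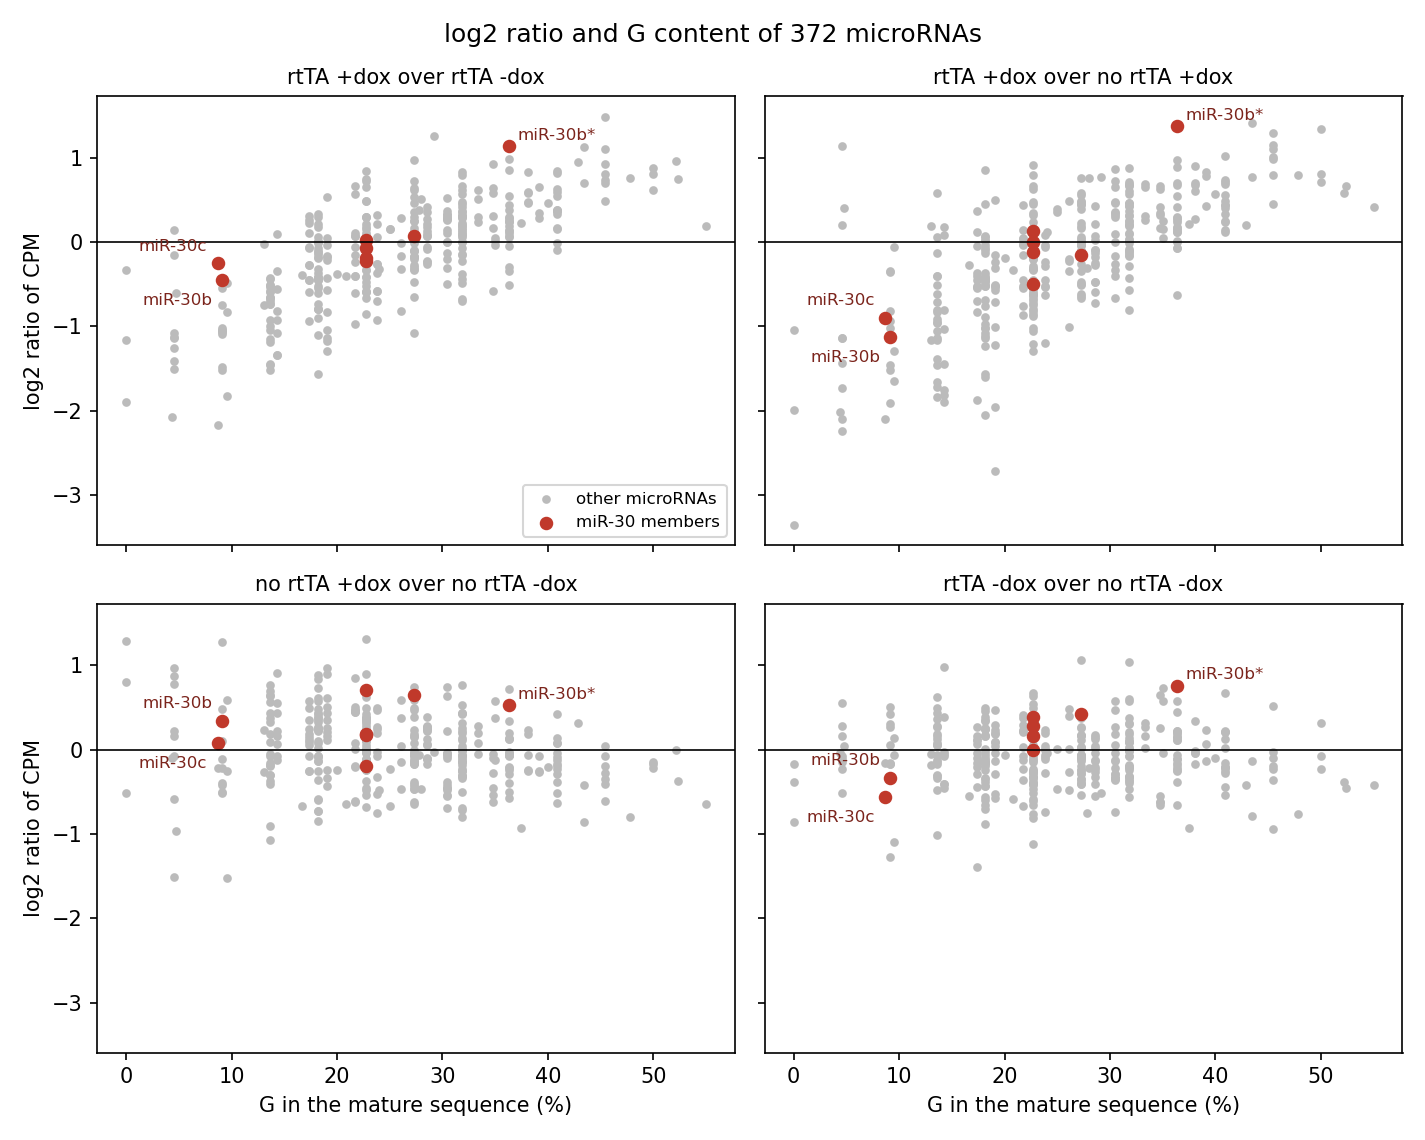
log2 ratio of CPM against the percentage of G in the mature sequence for 372 microRNAs in the 4 comparisons, with the 8 miR-30 members in red. In both comparisons with the rtTA, +dox library on top (upper panels) the ratios run upward with G (correlations 0.72 and 0.69). There the red points at low G (miR-30b, miR-30c) are the lowest of the 8 members and that at high G (miR-30b*) the highest. Among all 372, miR-30b and miR-30c rank only 91 and 135 from the lowest for rtTA, +dox over rtTA, -dox. No slope shows for rtTA, -dox over no rtTA, -dox (-0.0038).

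Likeness to the summed guides over the 4 libraries was measured by the largest absolute difference between centred log2 levels, a smaller value meaning more alike. Outside the family the smallest values were those of miR-700 (0.07), miR-191 (0.07) and miR-186 (0.08). miR-191, often used as a stable internal standard, had 3711 CPM (rtTA, +dox), 3852 CPM (rtTA, -dox), 3791 CPM (no rtTA, +dox) and 3781 CPM (no rtTA, -dox). These profiles are nearly flat, and 4 libraries give likeness little meaning beyond that.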

How the data were processed

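Small RNA was counted in 4 libraries, 1 per group. The deposited values are raw counts per microRNA name, with 1 row for the shRNA; per the file headers no processing step is named, and the aligner, allowed mismatches, genome build and handling of shared reads are each not given in the sources used here. MicroRNAs absent from a library's list were set to 0. Per the labels, RNA was extracted with phenol and chloroform.

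From the counts, CPM of endogenous microRNA counts, log2 ratios with exact conditional binomial 95% intervals, star-arm shares and ratios of counts within a library were computed (Python 3.11.15, scipy 1.17.1). Compared microRNAs had a mean CPM equal to at least 20 counts in the shallowest library (372 of 508, holding 99.99% of the endogenous counts). Alternatives were TMM (edgeR 4.0.16) and DESeq2 1.42.0 size factors, scaling to all counts or without the 10 most abundant, floors of 5 counts or none, 1.5-fold, star names left out, and a linear trend on G subtracted. The interval and call rule was run on simulated counts with counting error alone. These hold no trend on G and no spread between replicates, so they cannot check the calls for either. With 1 library per group no p-value was computed.

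The named microRNAs are the members, the other miR-30 arms and microRNAs with the guide seed, the neighbours of the shRNA in level, and 3 each most like the shRNA and the summed guides. Members and lists were chosen with earlier results of these data known.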

Additional observations from a re-analysis of the deposited data

Results flagged for a closer look

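For 3 members the dox ratio pointed one way in cells with rtTA and the other way in cells without it, on 1 library per group and with the difference itself not tested against replicates. The log2 difference, with rtTA minus without, was -0.39 for miR-30a (ratios -0.22 and 0.17), -0.79 for miR-30b (-0.45 and 0.34) and -0.89 for miR-30e* (-0.19 and 0.71). Of the 372 microRNAs, 33.6% met the same condition.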

How the results depend on the processing

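No paired analysis was possible because each group has 1 library, and for the same reason no replicate could be left out. Of 116 alternative values for the shRNA, the summed guides and the counts of microRNAs, 73 stayed within the counting interval (counts within 1.5 times). The shRNA ratio of rtTA, +dox over no rtTA, +dox was 5.08 under TMM and 5.08 under DESeq2 scaling, against 4.98. The summed guides, in the order dox in rtTA cells, rtTA with dox, dox without rtTA and rtTA without dox, were at -0.0862, 0.0337, 0.0574 and 0.18 under TMM and at -0.0892, 0.0367, 0.0779 and 0.20 under DESeq2. Scaled to all counts the first 2 were -0.15 and -0.10. Without the 10 most abundant microRNAs the first, second and last were -0.10, -0.0424 and 0.17, and without miR-30d the last 3 were -0.12, 0.18 and 0.20. Against all 8 members in place of the guides, the shRNA had 2.14 (rtTA, +dox), 0.0639 (rtTA, -dox), 0.0644 (no rtTA, +dox) and 0.0664 (no rtTA, -dox) counts per count.

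Counts of microRNAs higher and lower by 1.5-fold were 41 and 66 (dox in rtTA cells), 51 and 90 (rtTA with dox), 28 and 29 (dox without rtTA) and 9 and 26 (rtTA without dox). With star names left out, 21 (of 32) were lower for dox in rtTA cells, 0 (of 3) higher for dox without rtTA and 1 (of 2) higher for rtTA without dox. With the G trend subtracted, chosen after seeing the data for these counts, 2 were higher and 7 lower (dox in rtTA cells), 24 lower (rtTA with dox) and 5 lower (dox without rtTA). With a floor of 5 counts 6 were lower for dox without rtTA and 7 higher for rtTA without dox. With no floor 5 were higher and 6 lower for dox without rtTA, and 7 higher and 8 lower for rtTA without dox. The members called by the 2-fold rule were miR-30b* and, for rtTA with dox, miR-30b under each scaling, and none with the G trend subtracted. That trend moved single members' log2 ratios by up to 0.85, and the scalings by up to 0.10. miR-30b* rests on 46 to 202 counts per library.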
